A study of Mus musculus with 4 samples.

Results

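Integrins, collagens and laminins are the receptors and the structural proteins by which a cell holds on to its surroundings. The genes were taken from the mRNA table by symbol: collagen chains, laminin chains, integrin α and β chains, and Fn1, Sparc, Nid1 and Nid2. The rule found 89 genes of the 22287 in the table: 44 collagen, 11 laminin, 17 integrin α and 9 integrin β genes, 4 matrix glycoproteins, and 4 genes that match by spelling but encode no chain (Col4a3bp, Itgb1bp1, Itgb1bp2 and Itgb3bp). The libraries came from N2a, a mouse neuroblastoma cell line labelled as strain C57BL/6, cultured with 300 µM manganese for 48 h or left untreated. The labels repeat 1 treatment text for every sample, so only the titles tell treated from untreated. Each condition had 1 ribosome-depleted total RNA library. A ratio is therefore a statement about this pair of libraries, and the spread between cultures is unknown.

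An integrin is a pair of one α and one β chain. Its head holds divalent metal ions at the ligand site, and manganese ions added to cells are a standard laboratory means of switching integrins into their high-affinity state. Laminins are trimers of an α, a β and a γ chain that, together with the type IV collagen network and nidogens, make up basement membranes. Fibrillar collagens such as types I and III are mainly products of mesenchymal cells, and fibronectin is the ligand through which many integrins recognise the Arg-Gly-Asp (RGD) motif. The best known partners are Itgb1 with many α chains, Itgb4 with Itga6, and Itgb3, Itgb5, Itgb6 and Itgb8 with Itgav.

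The Mn-treated library held 14606967 gene-assigned reads and the untreated library 13972460. Ratios are Mn-treated over untreated reads, each divided by its column total, and were formed for genes whose libraries together held 20 or more reads. Square brackets hold 95% intervals for counting error alone. The middle one of the 11872 genes with 20 or more reads had a log2 ratio of 0.18, so a log2 ratio is to be read against 0.18. Of 13 sympathoadrenal neuroblastoma markers 12 had 20 or more reads. Mycn had 1243 and 1478 reads, Th 173 and 88, Isl1 143 and 252 and Hand1 1 and 0 in the Mn-treated and untreated library. Of 12 fibroblast markers Lum, Thy1, Fap and Tcf21 had 0 reads in both libraries, whereas Vim had 2282 and 2058 and Pdgfrb 56 and 46 in the Mn-treated and untreated library. Of 9 leukocyte markers Ptprc, Aif1, Fcgr1 and Cx3cr1 had 0 in both, and Lyz2 had 20 and 0.

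Promoter windows are shown for the genes on which the results turn. They are Itgb1, the abundant integrin chain with the highest ratio, and Itgav, the gene with the lowest. Also shown are Col7a1, the collagen with the best covered 2-fold difference by column totals, and the type IV pair Col4a1 and Col4a2. The starts of that pair lie together. Each window is from RefSeq (GRCm38.p6), runs 5′ to 3′ on the gene's strand and covers 250 bases before and 50 after the annotated start. Capitals mark the GC box GGGCGG and the CCAAT box CCAAT on either strand.
Itgb1, chr8:128685404-128685703, plus strand: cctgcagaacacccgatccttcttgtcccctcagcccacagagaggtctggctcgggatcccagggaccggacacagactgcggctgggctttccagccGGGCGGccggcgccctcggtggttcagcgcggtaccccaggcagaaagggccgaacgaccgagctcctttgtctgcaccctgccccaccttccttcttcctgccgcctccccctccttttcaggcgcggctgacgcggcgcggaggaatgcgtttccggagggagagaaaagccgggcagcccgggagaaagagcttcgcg
Itgav, chr2:83724147-83724446, plus strand: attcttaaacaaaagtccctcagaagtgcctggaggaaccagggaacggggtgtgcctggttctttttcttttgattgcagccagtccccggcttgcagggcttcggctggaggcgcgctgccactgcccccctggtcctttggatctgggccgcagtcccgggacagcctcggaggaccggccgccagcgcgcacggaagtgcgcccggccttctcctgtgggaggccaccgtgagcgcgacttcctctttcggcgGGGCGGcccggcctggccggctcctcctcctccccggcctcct
Col7a1, chr9:108953336-108953635, plus strand: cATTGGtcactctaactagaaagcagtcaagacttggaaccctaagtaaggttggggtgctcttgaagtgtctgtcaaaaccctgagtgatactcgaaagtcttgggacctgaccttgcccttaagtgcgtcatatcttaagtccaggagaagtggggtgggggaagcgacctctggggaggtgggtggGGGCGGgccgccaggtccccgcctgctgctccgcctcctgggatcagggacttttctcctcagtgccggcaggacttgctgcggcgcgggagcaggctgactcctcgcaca

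Col4a1 and Col4a2 are transcribed in opposite directions from a common promoter region. In RefSeq the Col4a1 start is at position 11312826 of chromosome 8 (minus strand) and the Col4a2 start at 11312805 (plus strand), so the annotated transcripts overlap by 22 bases. Their promoter windows have 78 bases in common, shown on the plus strand with the overlapping bases in capitals.
Col4a1 and Col4a2, chr8:11312777-11312854, plus strand: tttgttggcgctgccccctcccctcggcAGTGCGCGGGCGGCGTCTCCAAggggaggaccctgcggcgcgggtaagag
The whole Col4a1 window had 1 GC box and 1 CCAAT box, and the Col4a2 window 3 and 1. A window was found for 63 of the 89 genes, 69 windows in all. GGGCGG was in 52.2% of these windows and in 35.7% of all 32851 windows of the table, CCAAT in 26.1% and 37.4%, and TATAAA in 7.25% and 13.6%, each counted on both strands. No matches overlap in the sequences printed. A match of letters says nothing on whether a factor binds there.

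As a whole, the matrix and integrin genes of the Mn-treated library spread in both directions around the middle gene. Of the 89 genes, 42 had 20 or more reads, 32 had 1 to 19 reads and 15 had none in either library (36% of all genes). The median log2 ratio of the 42 was 0.31, against 0.18 for all genes, and 24 of the 42 lay above the middle gene (50% of all genes by definition). At least 2-fold higher in the Mn-treated library were 4 of the 42 (7.26% of all genes), among them Col7a1, Itga7 and Col20a1. At least 2-fold lower were also 4 (1.69% of all genes), namely Itgav, Lama2, Itga8 and Itgb7. Scaling by the median ratio of all genes in place of column totals left 2 higher (4.61% of all genes) and gave 5 lower (2.74%). Col7a1 and Itga7 fell below 2-fold with that scaling, at log2 ratios of 0.90 and 0.86. At 1.5-fold, 13 were higher (21.6% of all genes) and 6 lower (5.97%). Under median-ratio scaling 6 (13.4%) were higher and 8 (11.3%) lower.

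Most of the larger differences sat on few reads. With at least 100 reads, 2 genes remained 2-fold higher (4.72% of all such genes) and 1 lower (0.73%). None of the 14 genes with 1000 or more reads reached 2-fold (1.8% of all such genes), and their log2 ratios ran between -0.14 and 0.89. At least 1.5-fold higher were 5 of these 14 (10.7% of all such genes): Itgb1, Col4a2, Lama4, Itga3 and Itga6. At least 1.5-fold lower were 0 of 14 (4.32%). With median-ratio scaling only Itgb1 of the 5 stayed at 1.5-fold.

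**Figure D1:**
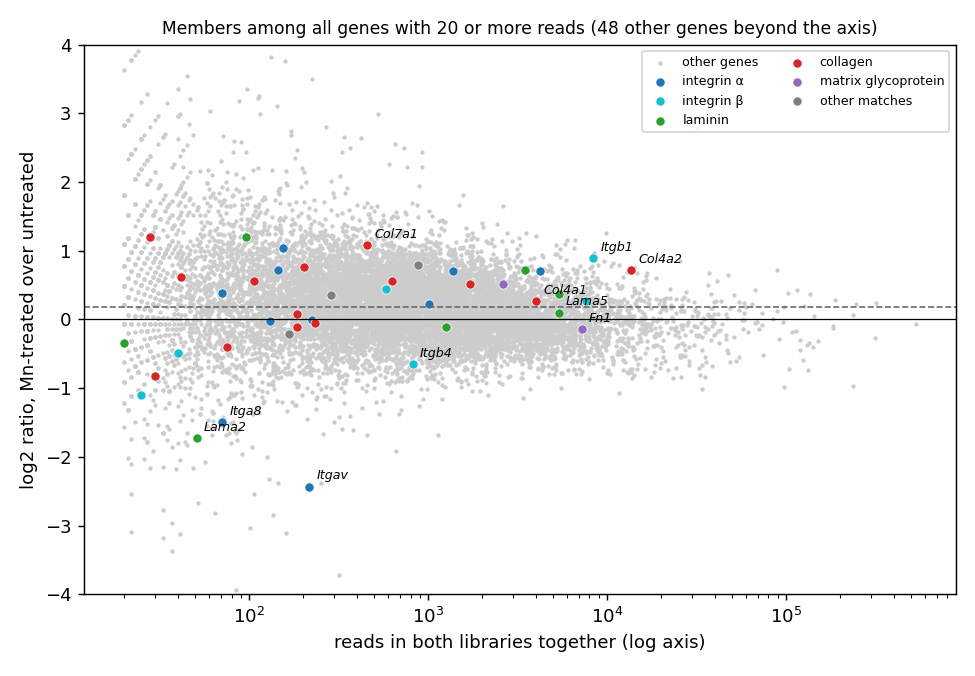
Log2 ratio of reads, Mn-treated over untreated, against the reads in both libraries together (log axis) for genes with 20 or more reads. Coloured points are the integrin, laminin, collagen and matrix genes, grey points all other genes (48 lie beyond the axis), and the dashed line is the middle gene at 0.18. Itgav is the lowest coloured point at -2.43, and the abundant genes Itgb1 and Col4a2 lie above most grey points of like depth.

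The receptors were led by Itgb1 and Itgb5 on the β side and Itga6 and Itga3 on the α side. FPKM values of the authors (fragments scaled by gene length and library size), which allow levels of different genes to be compared, stood at 61.95 for Itgb5 and 58.7 for Itgb1 in the Mn-treated library, against 49.74 and 31.37 in the untreated library. Itgb1, the common partner of most α chains, had 5522 reads in the Mn-treated and 2853 in the untreated library, a ratio of 1.85 [1.77 to 1.94] and the highest among the 14 integrin and matrix genes with 1000 or more reads. Itgb5, a partner of Itgav, had 4276 and 3400 reads, at 0.27 on the log2 scale [0.20 to 0.33]. Measured as FPKM, the level of Itgb1 relative to Itgb5 was thus 0.948 in the Mn-treated library and 0.631 in the untreated one.

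Itga3, Itga6 and Itga7, α chains that bind laminin, were all higher in the Mn-treated library, by 1.63-fold to 2.06-fold. Itga6 had 2659 reads with manganese and 1559 without, a log2 ratio of 0.71 [0.62 to 0.80]. Itga3 had 867 and 507 reads, also at 0.71 [0.55 to 0.87]. Itga7, better known from muscle, had 106 and 49 reads, at 1.04 [0.55 to 1.57]. Its estimated counts were fractional, and the gene Mettl7b overlaps its span in RefSeq. Relative to the middle gene the log2 ratios of Itga6, Itga3 and Itga7 were 0.52, 0.53 and 0.86. Itgb4, which pairs with Itga6 in the hemidesmosomes of epithelia, differed from it in direction. It had 330 reads in the Mn-treated and 494 in the untreated library, a log2 ratio of -0.65 [-0.85 to -0.44]. The authors' deposited table has -0.17. The genes Galk1 and B230344G16Rik overlap the Itgb4 span in RefSeq, although the Itgb4 counts were whole. In FPKM, Itgb4 stood at 0.148 of the Itga6 level in the Mn-treated library and at 0.276 in the untreated library.

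The α chains that bind RGD ligands did not share a direction. Itgav, the partner of Itgb3, Itgb5, Itgb6 and Itgb8, had 35 reads in the Mn-treated and 183 in the untreated library. It was 5.40-fold lower with manganese, at -2.43 on the log2 scale [-3.02 to -1.92]. The authors' deposited table gives -2.80. Its estimated counts were fractional, a pseudogene (Dnmt3l-ps1) lies within its span in RefSeq, and the division of reads between them was not tested. Itga8, a partner of Itgb1, had 19 and 52 reads, at -1.49 [-2.36 to -0.73]. Itga5, the classical fibronectin receptor chain, had 554 and 455 reads, at 0.22 [0.04 to 0.40], close to the middle gene. Itga2b, a platelet chain that pairs with Itgb3, had 92 and 53 reads, at 0.73 [0.23 to 1.25]. For Itga2b the authors' deposited table has 1.25, from 2.79 FPKM in the Mn-treated and 1.17 FPKM in the untreated library.

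The β partners of Itgav were not lower along with it. Itgb3 had 341 reads in the Mn-treated and 240 in the untreated library, at 0.44 [0.20 to 0.69], and Itgb5 was at 0.27. Itgb6 had 1 and 0 reads, and Itgb8 had none in either library. Itgav was the scarcer chain in both libraries, with 0.22 FPKM in the Mn-treated and 1.53 FPKM in the untreated library, beside the much higher Itgb5. That order rests on the read assignment that is uncertain for Itgav.

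Collagen-binding α chains were low in both libraries. Itga1 had 115 and 111 reads in the Mn-treated and untreated library, at -0.01 [-0.40 to 0.38], and the gene Pelo lies within its span in RefSeq. Itga2 had 41 and 30 reads, at 0.38 [-0.33 to 1.12], whereas the authors' deposited table puts it at 1.21, from 0.67 FPKM in the Mn-treated and 0.29 FPKM in the untreated library. Itga10 had 9 and 0 reads, and Itga11 had 0 and 1. Chains known mainly from leukocytes were also low. Itgal had 67 and 65 reads, Itgb2 17 and 23, and Itgb7 8 and 17, with log2 ratios of -0.02, -0.49 and -1.11 whose intervals all include 0. Itgam had 6 and 0 reads, Itgae had 0 and 10, and Itgax had none. Itga9 had 1 and 4 reads, and Itga4 and Itgb2l had none.

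**Figure D2:**
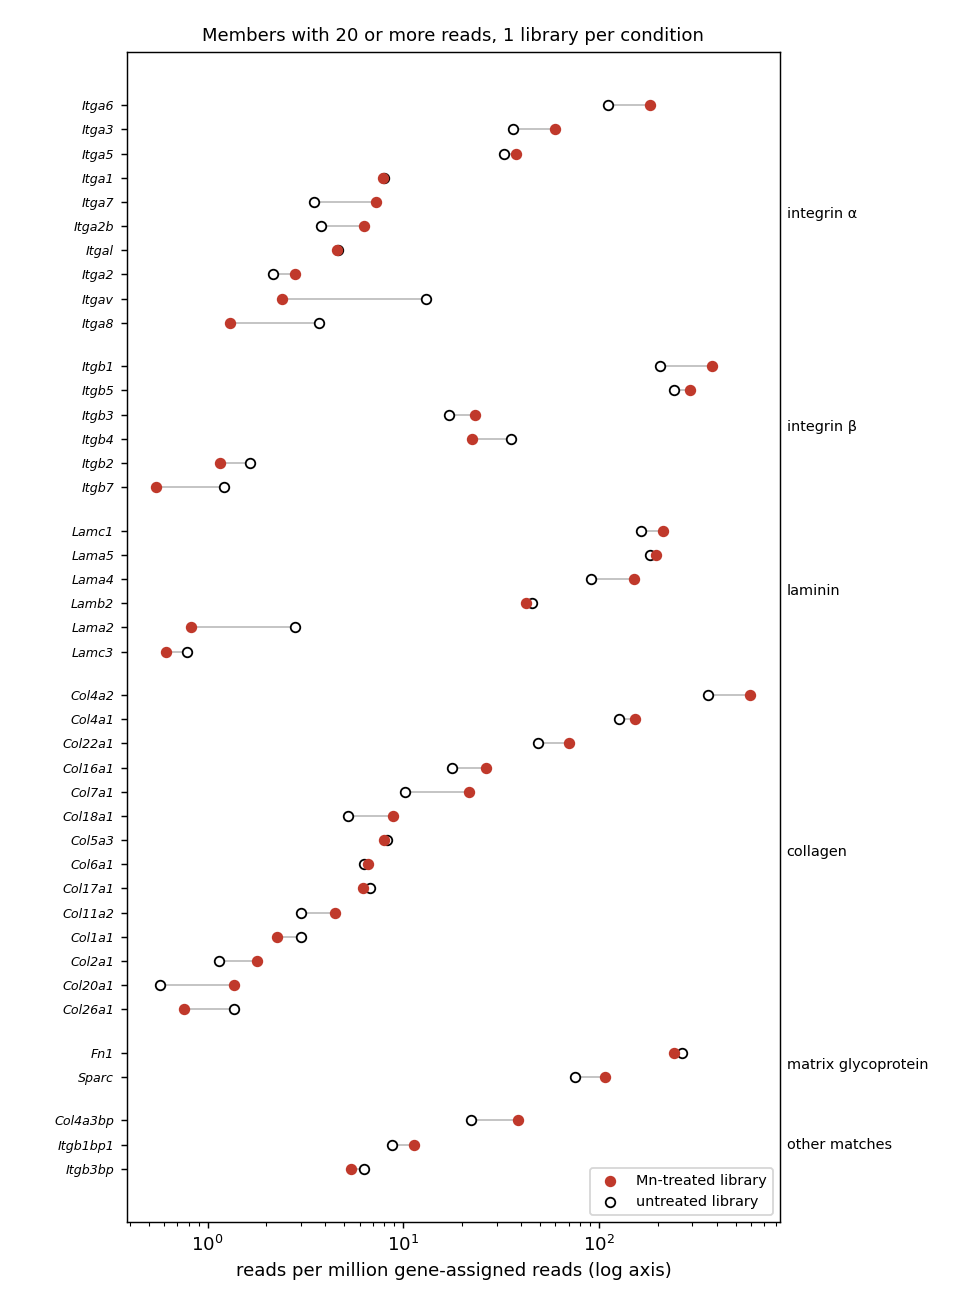
Gene-assigned reads per 1000000 (log axis) in the Mn-treated (filled) and the untreated library (open) for 41 of the 42 genes with 20 or more reads, grouped by kind, 1 library per condition. The scale is not corrected for gene length, so the horizontal gap within a row is what can be read. Itgav and Lama2 show wide gaps to the left, Col7a1 and Itga7 to the right, and Fn1, Lama5 and Lamb2 almost none.

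Among the collagen, laminin and glycoprotein genes taken by symbol, Col4a2 had the highest level in both libraries. Outside them the matrix glycoprotein Fbln1 was higher still, at 143.99 FPKM in the Mn-treated and 149.41 FPKM in the untreated library. In the Mn-treated library Col4a2 stood at 54.53 FPKM and Col4a1 at 29.71, followed by Sparc at 29.27, Fn1 at 25.51, Lamc1 at 16.44, Lama4 at 14.72 and Lama5 at 13.53. In the untreated library Col4a2 stood at 32.66 FPKM, Fn1 at 26.44, Col4a1 at 22.17, Sparc at 19.97, Lama5 at 13.58, Lamc1 at 12.53 and Lama4 at 8.87. Lama5 was above Lama4 in the untreated library, whereas they were close in the Mn-treated one. The transcript length that reads, column total and FPKM imply for Lama5 was 14431 bases in the Mn-treated and 13423 in the untreated library. The order of these chains in the Mn-treated library is therefore not resolved.

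The laminin chains shifted unequally. Lama4, the α chain of vessel and nerve basement membranes, had 2196 reads in the Mn-treated and 1280 in the untreated library, a log2 ratio of 0.71 [0.61 to 0.82]. Lama5, a widespread α chain, had 2852 and 2547 reads, at 0.10 [0.02 to 0.18], which is below the middle gene and turns to -0.08 with median-ratio scaling. The ratio of Lama5 to Lama4 reads was 1.30 [1.23 to 1.37] in the Mn-treated library and 1.99 [1.86 to 2.13] in the untreated library. Lamc1, the γ chain of most laminins, had 3093 and 2281 reads, at 0.38 [0.30 to 0.45]. Lamb2 was the only β chain with 20 or more reads. It had 619 and 639 reads, at -0.11 [-0.27 to 0.05], while its authors' FPKM was 4.46 in the Mn-treated and 6.66 in the untreated library, a log2 ratio of -0.58 in the authors' deposited table.

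Other laminin chains had far fewer reads. Lamb3, a β chain of epithelia, had 16 reads in the Mn-treated and 2 in the untreated library, and the epithelial α chain Lama3 had 1 and 0. Lama2, the α chain of muscle and Schwann cell laminin, had 12 reads with manganese and 39 without, at -1.72 [-2.83 to -0.80]. Lamc3 had 9 and 11 reads, at -0.34 [-1.80 to 1.05]. Lamb1, a widely expressed β chain, had 5 and 1 reads, and Lama1 had none. Lamb1 was low beside the abundant Lamc1, and whether its reads were lost in counting was not tested. The linker Nid1, which joins laminin to type IV collagen, had 12 reads in the Mn-treated and 0 in the untreated library, and Nid2 had 3 and 0. Markers of Schwann cells and glia, cells known for Lama2 and Lama4, were higher in sum: 9 of them came to 42.3 reads per 1000000 in the Mn-treated and 23.8 in the untreated library. Erbb3 had 290 and 126 reads and Mbp 309 and 189, while Sox10, S100b, Mag and Foxd3 had 0 in both. By the same measure 9 endothelial markers came to 25.5 in the Mn-treated and 23.6 in the untreated library. Vwf had 214 and 216 reads, Pecam1 76 and 68 and Esam 69 and 38, while Tie1, Cldn5 and Emcn had 0 in both. The part of either group of cells in the laminin values was not tested.

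Type IV collagen, the network former of basement membranes, was represented by Col4a1 and Col4a2, while Col4a3, Col4a4, Col4a5 and Col4a6 had 0 reads in both libraries. A count of 0 allows up to 0.205 reads per 1000000 in the Mn-treated and 0.215 in the untreated library. Col4a2 had 8682 reads with manganese and 5030 without, a log2 ratio of 0.72 [0.67 to 0.77]. Col4a1 had 2240 and 1776 reads, at 0.27 [0.18 to 0.36], which is near the middle gene. The genes that share the promoter stretch printed above were thus higher to different extents. The ratio of Col4a2 to Col4a1 reads was 3.88 [3.70 to 4.06] in the Mn-treated library and 2.83 [2.68 to 2.99] in the untreated library. In FPKM the same ratio was 1.84 and 1.47. The implied transcript length in the Mn-treated library was 5162 bases for Col4a1 and 10900 for Col4a2. Relative to the untreated library the implied length was 0.90 for Col4a1 and 0.99 for Col4a2. The FPKM of Col4a1, and with it the FPKM ratio, rests in part on these lengths. Reads over the 22 overlapping bases could belong to either gene, although the counts of both were whole.

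**Figure D3:**
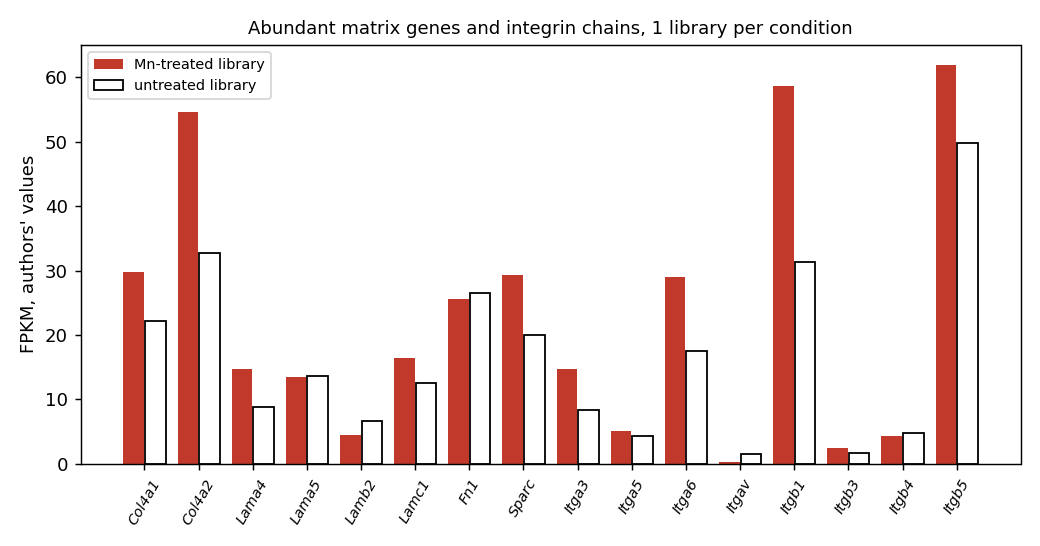
FPKM (authors' values) of the abundant matrix genes and of integrin chains named in the text, with the Mn-treated library left of the untreated library for each gene, 1 library per condition. Itgb1 (58.7 against 31.37) and Col4a2 (54.53 against 32.66) show large absolute gaps, and Fn1 and Lama5 show almost none.

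Col22a1, Col16a1 and Col7a1 had the most reads among the collagens other than type IV. Col7a1, the anchoring fibril collagen, had 315 reads in the Mn-treated and 142 in the untreated library, a ratio of 2.12 [1.74 to 2.61]. With median-ratio scaling it was under 2-fold, at a log2 ratio of 0.90. Col22a1 and Col16a1, which associate with fibrils and matrix junctions, had 1029 and 385 reads with manganese and 686 and 249 without, at log2 ratios of 0.52 [0.38 to 0.66] and 0.56 [0.33 to 0.80]. For Col22a1 the authors' deposited table has 0.94. Col18a1, a basement membrane collagen whose end fragment is endostatin, had 130 and 73 reads, at 0.76 [0.34 to 1.20]. Col20a1 had 20 and 8 reads, at 1.21 [0.01 to 2.65].

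The remaining collagens had intervals that include 0. The transmembrane Col17a1 had 91 reads in the Mn-treated and 94 in the untreated library, at -0.11 [-0.54 to 0.32]. Col5a3 had 117 and 116 reads, at -0.05 [-0.43 to 0.33], and the microfibril chain Col6a1 had 97 and 88, at 0.08 [-0.35 to 0.51]. The sign of Col6a1 turned with median-ratio scaling. The fibrillar chains Col11a2, Col2a1 and Col1a1 had 65, 26 and 33 reads with manganese and 42, 16 and 42 without, at 0.56, 0.62 and -0.41. Col26a1 had 11 and 19 reads, at -0.83 [-2.07 to 0.29]. Over the 14 collagens with 20 or more reads the median log2 ratio was 0.54, with 5 higher (21.6% of all genes) and 1 lower (5.97%) by 1.5-fold or more. With median-ratio scaling these counts were 2 (13.4% of all genes) and 2 (11.3%), 14.3% of the collagens each way and close to the shares of all genes.

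Of the glycoproteins, fibronectin and SPARC differed in direction. Fn1 had 3524 reads in the Mn-treated and 3723 in the untreated library, a log2 ratio of -0.14 [-0.21 to -0.08]. Sparc, a collagen-binding protein of the extracellular space, had 1579 and 1058 reads, at 0.51 [0.40 to 0.63]. Among the genes that match by spelling only, Col4a3bp, the ceramide transfer protein, had 564 and 312 reads, at 0.79 [0.59 to 0.99]. Itgb1bp1, a protein that binds the Itgb1 tail, had 165 and 123 reads, at 0.36 [0.01 to 0.71]. Itgb3bp, a centromere protein, had 79 and 88 reads, at -0.22 [-0.68 to 0.24], and Itgb1bp2 had 1 and 0. Leaving these 4 genes out gave a median of 0.27 over 39 genes.

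**Figure D4:**
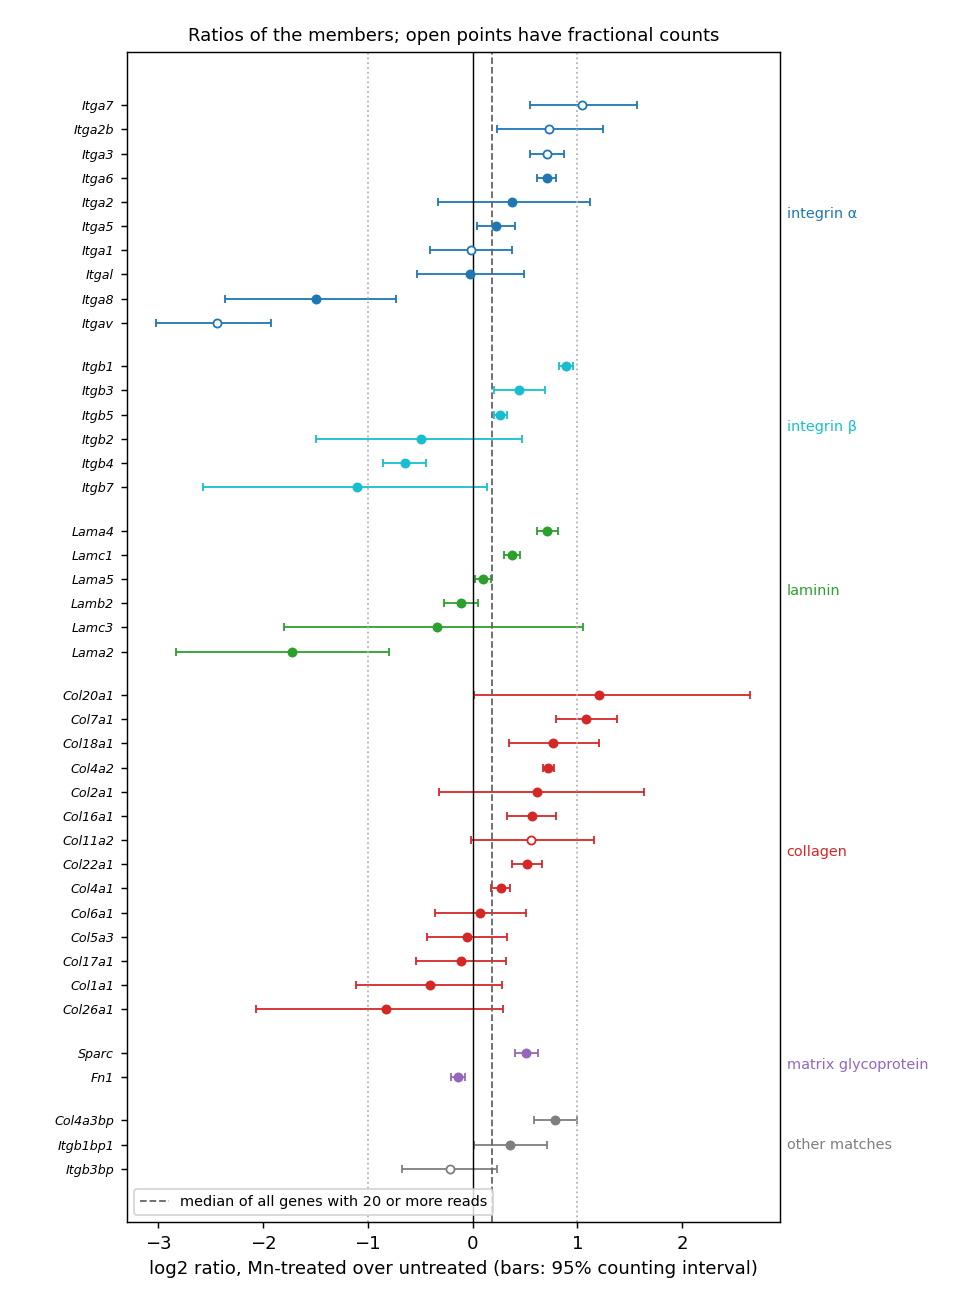
Log2 ratio, Mn-treated over untreated, of 41 of the 42 genes with 20 or more reads, grouped by kind, with bars for the 95% counting interval. Open points have fractional estimated counts, the solid line is 0, the dashed line the middle gene at 0.18 and the dotted lines 2-fold. In each class of integrin, laminin and collagen genes points lie on both sides of the dashed line, and the bars of abundant genes such as Itgb1 and Col4a2 are the shortest.

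Genes at the edge of detection leaned to the Mn-treated library. Of the 32 genes with 1 to 19 reads, 26 had more reads in the Mn-treated library (62.6% of the 2382 genes of that depth) and 6 had fewer (32.5%). Together they had 154 reads in the Mn-treated and 43 in the untreated library, a ratio of 3.58, against 1.5 for all genes of that depth. In the untreated library 17 of the 32 had 0 reads (39.5% of all), and in the Mn-treated library 4 had (17% of all). Col3a1, a fibrillar collagen of mesenchymal cells, had 18 reads in the Mn-treated and 0 in the untreated library. Its scarce fibril partners Col1a2 and Col5a1 had 5 and 8 reads with manganese and 0 without. The better covered chains of types I and V did not share this lean. Col1a1 had 33 reads in the Mn-treated and 42 in the untreated library, and Col5a3 had 117 and 116. Their log2 ratios were -0.41 and -0.05, with intervals that include 0.

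Other scarce collagens had more reads with manganese as well, with exceptions. Col14a1 had 11 and 2 reads in the Mn-treated and untreated library, Col24a1 10 and 6, Col9a3 9 and 2, and Col12a1 6 and 1. Col6a3 had 5 and 1, Col8a2 5 and 0, and Col9a2 4 and 2. Col23a1, a transmembrane collagen, had 0 and 7. Markers of mesenchymal and myeloid cells were at a like depth: the fibroblast proteoglycan Dcn had 9 and 3 reads, Pdgfra 11 and 5, and the macrophage gene Lyz2 20 and 0, while Lum and Ptprc had none. Summed over the whole marker lists, 9 leukocyte markers held 2.53 reads per 1000000 in the Mn-treated and 0.358 in the untreated library, and 12 fibroblast markers, nearly all through Vim, held 162 and 151. Their part in the reads of scarce collagens was not tested. The remaining 14 genes of this depth had 1 to 4 reads: Col5a2, Col6a2, Col6a4, Col8a1, Col9a1, Col10a1, Col15a1, Col27a1, Col28a1, Itga11, Itgb6, Lama3, Nid2 and Itgb1bp2. The other genes without reads in either library were Col6a5, Col6a6, Col11a1, Col13a1, Col19a1 and Col25a1.

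Read ratios and the authors' FPKM ratios were close for most of the 42 genes. They differed by over 1.5-fold for 1 of 42 (5.1% of all genes), Itga2, which is at 1.21 in the authors' deposited table against 0.38 by reads. Dividing reads by FPKM and by the column total gives an implied gene length. The library size behind the authors' FPKM may differ from the column total, so these lengths can be read only relative to each other. For Itga2 the implied length was 4189 bases in the Mn-treated and 7404 in the untreated library, for Itgb4 5266 and 7305, and for Lamb2 9502 and 6867. For these genes the FPKM therefore carried a change in assumed transcript length on top of the reads. Estimated counts were fractional for 7 of the 42 genes (23% of all genes): Itga1, Itga2b, Itga3, Itga7, Itgav, Col11a2 and Itgb3bp.

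**Figure D5:**
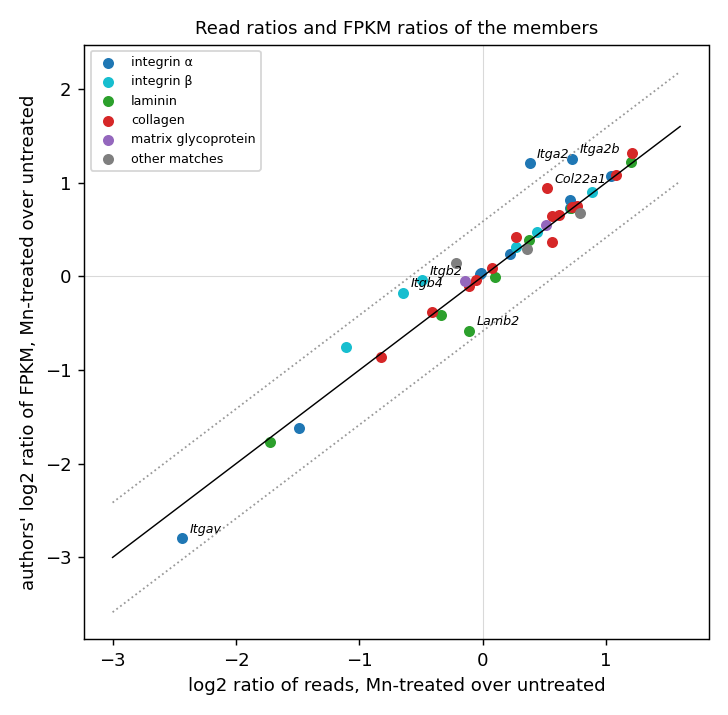
Authors' log2 ratio of FPKM against the log2 ratio of reads, both Mn-treated over untreated, for the 42 genes with 20 or more reads. The solid line marks equal values and the dotted lines a 1.5-fold disagreement. Itga2 lies outside the dotted lines, and Itga2b, Itgb4, Lamb2 and Col22a1 lie close to them.

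The machinery around these genes was examined with 5 lists. None of 26 adhesion adaptors with 20 or more reads, the proteins that tie integrin tails to actin, was past 2-fold higher (7.26% of all genes) or lower (1.69%), and their median log2 ratio was 0.19. The authors' deposited table gives a log2 FPKM ratio of 1.40 for Ptk2, the focal adhesion kinase, which was at 0.30 by reads. The highest by reads were Tns1, a tensin, with 1332 and 704 reads in the Mn-treated and untreated library at 0.86 [0.72 to 0.99], and Arhgef7 at 0.79. For Tns1, whose counts were fractional, the authors' deposited table has 0.34. The lowest adaptors by reads were Tln2, a talin, with 591 and 757 reads at -0.42 [-0.58 to -0.26], and Bcar1 at -0.23. None of 19 genes of collagen folding and crosslinking was past 2-fold either, beside the same shares of all genes, with a median of 0.17. P4ha1, a prolyl hydroxylase that stabilises the collagen helix, had 742 and 387 reads, at 0.87 [0.70 to 1.06]. Mia3, which helps load collagen into transport carriers, was also at 0.87 with 590 and 308 reads. Loxl2, a crosslinking oxidase, was at -0.39 and Crtap at -0.26. Serpinh1, a collagen chaperone, is listed at 0 reads in both libraries beside abundant collagen genes, and whether its reads were lost in counting was not tested.

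Of 25 other matrix glycoproteins and proteoglycans, 2 were at least 2-fold higher (7.26% of all genes) and 1 lower (1.69%), with a median of 0.20. The share higher was near that of all genes. Ecm1 had 281 reads in the Mn-treated and 71 in the untreated library, a ratio of 3.77 [2.91 to 4.98], and Ltbp3, a TGF-β binding protein, had 1077 and 496, a ratio of 2.08 [1.87 to 2.31] on fractional counts. Tnr, a neural matrix protein, had 18 and 56 reads, at a log2 ratio of -1.67 [-2.56 to -0.91], and Hspg2, the basement membrane proteoglycan perlecan, was at -0.41 with 548 and 698 reads. Of 20 matrix proteases and inhibitors 3 were at least 2-fold higher (7.26% of all genes) and 0 lower (1.69%), with a median of 0.15. With median-ratio scaling 2 were higher (4.61% of all genes). Hpse, a heparanase, had 26 and 6 reads, and Mmp19 had 148 and 48, a ratio of 2.93 [2.12 to 4.17]. Mmp15, a membrane-bound protease, was at -0.19 with 427 and 465 reads.

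Of 19 other matrix receptors 1 was at least 2-fold higher (7.26% of all genes) and 0 lower (1.69%), with a median of 0.23. Sgce, a sarcoglycan, had 139 and 57 reads in the Mn-treated and untreated library, a ratio of 2.32 [1.70 to 3.23]. Sdc3, a neural syndecan, had 5680 and 2811 reads, a ratio of 1.93 [1.85 to 2.02]. Bcam, a receptor for Lama5-containing laminins, had 87 and 130 reads, at a log2 ratio of -0.64 [-1.05 to -0.24], and Sdc4 was at -0.40. The medians of all 5 lists lay within 0.05 of the middle gene.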

How the data were processed

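Only the mRNA table and, for back-splice reads, the circRNA table were used. The build mm9 and the tools StringTie, Bowtie2 and fastp 0.18.0 are named, without role or order, per the submitters' processing notes. Which program counted reads, on which annotation, is not given in the sources used here. In the mRNA table the authors deposited estimated counts (not whole for 13.3% of genes), FPKM values and log2 fold changes of FPKM in which 0 was replaced by 0.001. The circRNA table holds junction counts deposited as whole numbers. Columns were assigned by the condition in their names and the RNA class of the table.

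Estimated counts were rounded and 0.5 was added before forming ratios over column totals (Python 3.11.15, numpy 2.4.6, pandas 2.3.3, scipy 1.17.1). Intervals are exact conditional binomial 95% intervals (Clopper-Pearson). They cover counting error only, not the spread between cultures. Without molecular identifiers PCR copies cannot be told from separate molecules, so the intervals may be too narrow even for counting error. With 1 library per condition no test was made. The ratio step was tested on simulated data. Alternatives were median-ratio scaling, TMM scaling (edgeR 4.0.16), the FPKM ratio, other read minimums, another pseudocount and another fold. Every gene with 20 or more reads is named, with reads for those with 5 or more, and from each further list the 2 highest and 2 lowest genes with 20 or more reads, apart from 2 genes under these rules whose values are not reported here. Cell type markers were also named singly where they bear on a result. The genes and lists were chosen with earlier results of these data known.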

Additional observations from a re-analysis of the deposited data

How the results depend on the processing

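No paired analysis was possible because each condition had 1 library and the labels give no replicate numbers, and for the same reason no library could be left out. The 4 genes at least 2-fold higher (7.26% of all genes) became 2 with median-ratio scaling (4.61%), 2 with TMM scaling (4.67%) and 2 with a pseudocount of 5 (5.89%). They became 2 with at least 100 reads (4.72%), 13 at 1.5-fold (21.6%), and 28 with no read minimum (14.7%), where 74 genes have a ratio. The 4 genes at least 2-fold lower (1.69% of all genes) became 1 with at least 100 reads (0.73%) and 9 with no read minimum (5.49%). Under the other settings, each count was within 1.5 times its main value. The median log2 ratio of 0.31 became 0.13 with median-ratio scaling and 0.14 with TMM scaling, where the median of all genes was at -0.000 and 0.007. It became 0.38 with at least 100 reads and 0.67 with no read minimum, where that of all genes was 0.168 and 0.208. Both scalings turned the sign of Col6a1 and Lama5. The authors' FPKM ratio turned that of Itga1, Itgal, Lama5 and Itgb3bp. Of the 4 settings run for single genes, only the authors' FPKM ratio could have turned the sign of a gene past 2-fold. It turned none of them. The scalings and the pseudocount make shifts too small for that. Col7a1 and Itga7 fell below 2-fold with both scalings.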

Other observations

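Circular RNAs of these genes were few. Of 2253 circRNAs in the table, 4 had one of the 89 genes as source, and 0 of them had 10 or more junction reads. The circRNA of Col4a3bp had 0 junction reads in the Mn-treated and 7 in the untreated library, whereas the gene itself had 564 and 312 reads. That of Col7a1 had 0 and 3, that of Itga6 2 and 0, and a circRNA of 1 exon assigned to Col6a5 had 4 and 2, although Col6a5 had 0 gene reads in both libraries.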
